A study of Mus musculus with 10 samples.

Results

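Tight junctions, adherens junctions and desmosomes hold the cells of the colon epithelium together, and 32 of their genes were followed here in colon tumors with and without the Wnt secretion factor Wls. The genes were chosen by name from the 16875 gene names of the expression table: 10 claudins, 5 other membrane proteins of the tight junction, 3 tight junction scaffolds, 4 polarity proteins, 4 genes of the adherens junction group with Epcam, and 6 desmosome genes. All 32 were present and all 32 were tested. The choice was by name, with no threshold on a measured value, but earlier results of these data were known when it was made.

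The study induced colon tumors in C57BL/6 mice with the carcinogen azoxymethane (AOM), followed by 3 cycles of 2% dextran sulfate sodium (DSS) in the drinking water, which injures the colon lining. Tumors were taken 120 days after AOM from mice that were 6 to 10 weeks old at the start, with females used by preference. Control tumors (n = 5) came from Wls flox/flox mice. Villin-WlscKO tumors (n = 5) came from Villin-Cre ERT2, Wls flox/flox mice, in which 5 tamoxifen injections at 80 mg/kg, begun 30 days before collection, delete Wls. All tumors of both groups therefore carried the floxed allele and had been through AOM and DSS, and per the legends the control mice received no tamoxifen unless stated. The Villin promoter drives the recombinase in intestinal epithelium, so stroma, vessels and immune cells kept Wls. Tumors were dissected whole and messenger RNA was sequenced. Values are FPKM, which scale the fragments of a gene to the length of its transcripts and to the mapped total of the library. Each column is 1 tumor, and how many mice the tumors came from is not given, so p-values measure the spread between tumors.

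As background, the tight junction seals the space between neighbouring cells near their apical edge. Claudins form its strands: some tighten the barrier, while Cldn2 and Cldn15 form pores for small cations and water. Occludin and tricellulin are membrane proteins of the same strands, and ZO proteins and cingulin tie the strands to actin. Below it lies the adherens junction, where E-cadherin binds p120 catenin and, through beta-catenin, alpha-catenin. Beta-catenin is also the messenger of Wnt signaling, which links this junction to the pathway that Wls serves. Desmosomes join cells through desmogleins and desmocollins, which plakoglobin, plakophilins and desmoplakin anchor to keratin filaments. In bulk tumor RNA, fewer cells of a type and less RNA per cell cannot be told apart.

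Several facts of the series touch the values given further on. Wls lay between 61.3 and 79.9 FPKM in the control tumors and between 2.03 and 11.7 FPKM in the Villin-WlscKO tumors. Within the latter group its loss was uneven: tumor 2 kept 11.6 FPKM and tumor 3 kept 11.7 FPKM. Tumors 1, 4 and 5 of that group kept 2.81, 3.61 and 2.03 FPKM. The part of this unevenness in the results was not tested. The groups also differed in the sex of the mice: Xist, transcribed from the inactive X chromosome, was at 439 to 701 FPKM in the Villin-WlscKO tumors and at most at 0.420 FPKM in the controls, whereas the Y-linked Eif2s3y was at 30.4 to 46.6 FPKM in the controls and at most at 0.138 FPKM in the others. Genotype, sex and tamoxifen cannot be told apart. Villin-WlscKO tumors 2 and 3, those with the most Wls of their group, also stood apart by the basal squamous keratin gene Krt5. They had 470 and 669 FPKM of it, against at most 0.315 FPKM in every other tumor. The summed FPKM of 12 squamous markers was 1267 and 1615 in these 2 tumors and 119 to 266 in the other 8. Among these markers 1, Sprr1a, passed as higher in the Villin-WlscKO group, against 6.12% of all genes. The epithelial label held: the summed level of 14 colon epithelial markers, among them the keratin genes Krt8, Krt18, Krt19 and Krt20, was 7456 to 10913 FPKM in the controls and 9334 to 13752 FPKM in the Villin-WlscKO tumors. Of these 14 markers, 12 had a difference above 0 and 2, Krt20 and Tspan8, passed the test as higher. Of all genes tested, 8617 of 16757 had a difference above 0 and 6.12% passed as higher. Summed levels of 12 endothelial markers overlapped (63.7 to 125 and 53.1 to 127 FPKM), as did those of 12 fibroblast and smooth muscle markers (351 to 1123 and 456 to 1244 FPKM). The test was passed by 0 of either list, against 10.9% of all genes. Summed levels of 13 leukocyte markers were 91.2 to 320 FPKM and 234 to 557 FPKM. Most of each sum was S100a8, at 55.1 to 277 and 189 to 487 FPKM. Of the 13, 3 passed as higher (Cd3e, Cd3g and Cd8a), against 6.12% of all genes. Cd3e and Cd8a were at most at 1.67 and 1.41 FPKM in any tumor, and Cd4, Cd68 and Adgre1 had differences below 0. The part of these markers in the results was not tested.

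Of the 32 junction genes, 1 differed between the groups past the threshold. Dsc2, the desmocollin of simple epithelia such as the colon, rose 1.39-fold in group means, and it was the only gene of the 32 whose 2 groups did not overlap. No other member passed the threshold in either direction (limma on log2(FPKM + 1), Benjamini-Hochberg adjusted p under 0.05 over 16757 genes). Across all genes tested, 10.9% passed that threshold, 6.12% as higher and 4.75% as lower, and the groups did not overlap for 10.1%. Among the 32 members, 1 was higher, 0 were lower and 1 did not overlap. At an unadjusted limma p under 0.05 there were 9 members (28.1%), against 25.7% of all genes. The exact permutation test over the 252 ways to divide the tumors gave a p under 0.05 for 8 members. That test was run only for the members and the listed genes, so its count has no share over all genes beside it.

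The differences of the members were small in size. A difference is given throughout as the mean log2(FPKM + 1) of the Villin-WlscKO tumors minus that of the controls, which understates the change of genes with few FPKM. The median difference was 0.04 over the members and 0.0073 over all genes, and the median size without regard to sign was 0.155 over the members and 0.165 over all genes. For 20 of 32 members (62.5%) the 95% interval of the difference lay within 0.5 of 0, that is within 1.41-fold, which held for 53.0% of all genes. A miss of the threshold does not by itself show that the groups were alike, and for the other 12 members these tumors leave room for a larger difference.

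**Figure D1:**
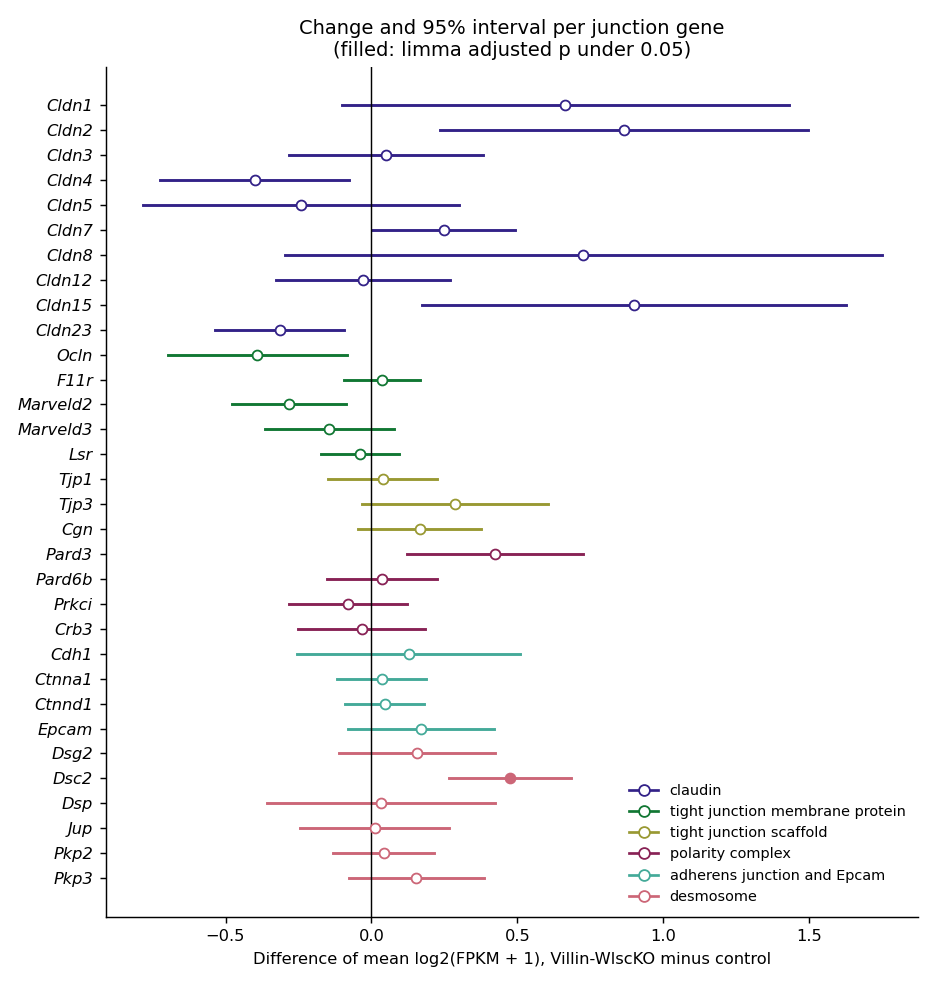
Villin-WlscKO minus control difference of the mean log2(FPKM + 1) (horizontal axis) for the 32 junction genes grouped by role (rows, colors). Points are the limma estimates from 5 against 5 tumors, lines their 95% intervals, and only Dsc2 is filled because it alone passed the threshold; the widest intervals belong to claudins of low or variable level.

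The claudins were the most variable family. Of the 10 claudins, 0 passed the threshold, 5 had an unadjusted p under 0.05, and only 3 had an interval within 0.5 of 0. The ends of their order of level were fixed while ranks between them changed from tumor to tumor: Cldn7 was the highest and Cldn1 the lowest in all 10 tumors, and Cldn3, Cldn4 and Cldn7 together made up 92.4% ± 0.775 (SD, n = 5) of the summed claudin FPKM in the controls and 90.6% ± 1.31 in the Villin-WlscKO tumors. FPKM are scaled to transcript length, which allows these comparisons between genes. The claudin sum itself was 1787 ± 229 FPKM and 1868 ± 160 FPKM.

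**Figure D2:**
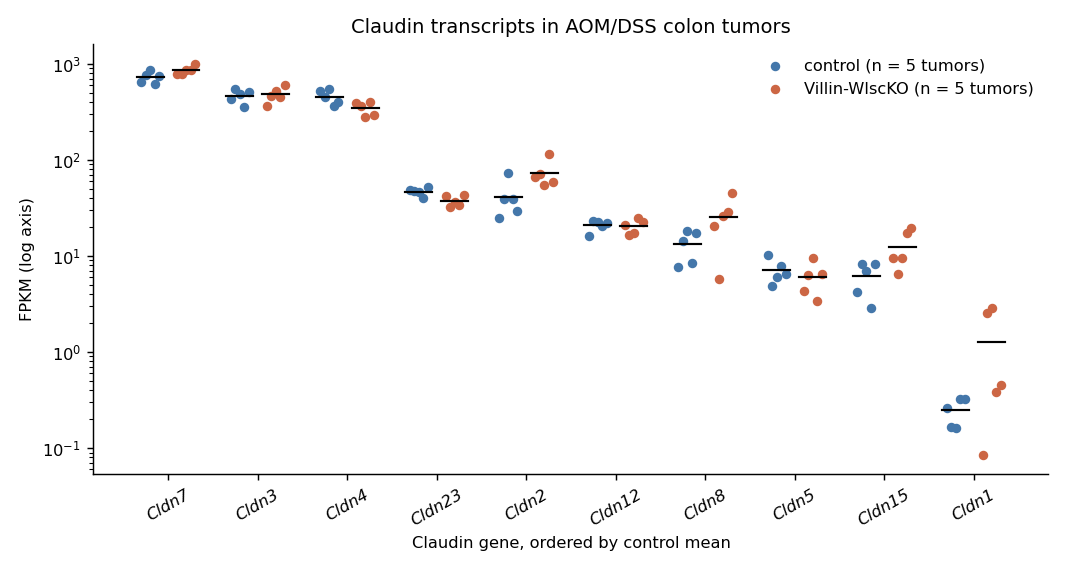
FPKM of the 10 claudins in each tumor (vertical log axis), ordered by control mean; points are tumors, 5 per group, and bars are group means. The lowest group mean of Cldn7, Cldn3 and Cldn4 is 347 FPKM and the highest of the other claudins is 73.3 FPKM, and the groups overlap for every claudin.

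Cldn7 is an abundant claudin of the colonocyte side membrane. It was at 651, 761, 856, 611 and 753 FPKM in control tumors 1 to 5 and at 779, 780, 863, 871 and 1010 FPKM in the Villin-WlscKO tumors. Of the Villin-WlscKO tumors, 3 lay above the highest control. The difference was 0.25 (SE 0.11), with an adjusted p of 0.189 by limma and 0.0397 in the exact permutation test, so that it did not pass over all genes.

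Cldn3, a barrier claudin, was at 436, 544, 490, 353 and 508 FPKM in the controls and at 367, 468, 528, 455 and 602 FPKM in the Villin-WlscKO tumors. The groups covered nearly the same range, and the difference was 0.05 (95% interval -0.28 to 0.38). Cldn4, another barrier claudin, was at 528, 451, 549, 364 and 398 FPKM in the controls and at 395, 365, 279, 403 and 292 FPKM in the Villin-WlscKO tumors. Only Villin-WlscKO tumors 3 and 5 were below every control, and the difference of -0.40 (SE 0.15) did not pass (limma adjusted p = 0.114, exact permutation p = 0.0556).

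Cldn3 and Cldn4 are neighbours on chromosome 5, on opposite strands (chr5:134986214-134987472 and chr5:134945119-134946934, GRCm38), with 39279 bases between them. Cldn3 exceeded Cldn4 in 2 of 5 control tumors and in 4 of 5 Villin-WlscKO tumors, and their ratio was 1.03 ± 0.198 and 1.46 ± 0.492 (SD, n = 5 each). These ratios overlapped. Because this pair shares a locus and Cldn2 had the largest difference among claudins above 10 FPKM in the controls, the 250 bases before the RefSeq start of the 3 genes are shown (GRCm38.p6, 5′ to 3′ on the strand of the gene), for Cldn3 at chr5:134985964-134986213 on the plus strand, for Cldn4 at chr5:134946935-134947184 on the minus strand and for Cldn2 at chrX:139800558-139800807 on the plus strand. Capitals mark every match to the motifs searched.
Cldn3: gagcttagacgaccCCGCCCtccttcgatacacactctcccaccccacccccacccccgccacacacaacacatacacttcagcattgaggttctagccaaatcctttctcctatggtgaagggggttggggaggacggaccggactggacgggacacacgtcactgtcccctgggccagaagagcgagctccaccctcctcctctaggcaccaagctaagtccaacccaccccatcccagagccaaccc
Cldn4: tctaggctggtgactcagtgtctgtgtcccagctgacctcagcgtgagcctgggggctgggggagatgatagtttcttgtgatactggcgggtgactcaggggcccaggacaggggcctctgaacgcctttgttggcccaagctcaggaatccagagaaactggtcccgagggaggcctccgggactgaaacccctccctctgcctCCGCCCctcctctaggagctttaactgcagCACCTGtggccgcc
Cldn2: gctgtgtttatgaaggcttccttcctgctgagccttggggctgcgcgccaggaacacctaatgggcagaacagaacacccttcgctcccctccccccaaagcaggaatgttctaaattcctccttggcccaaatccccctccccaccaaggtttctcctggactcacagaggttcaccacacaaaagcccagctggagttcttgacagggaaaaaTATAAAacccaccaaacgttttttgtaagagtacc

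Such windows were searched on both strands for 6 motifs: the TCF/LEF core CTTTGAT, the E-box CAGGTG that Snail and Zeb repressors can bind, the STAT-type GAS motif TTCNNNGAA, the CDX motif TTTATTA, the TATA box TATAAA and the GC box GGGCGG. Cldn4 held an E-box starting 14 bases before its start and a GC box 44 bases before it, Cldn3 held a GC box, and Cldn2 held a TATA box 35 bases before its start. Among the 32 windows of the 23 members with RefSeq windows outside chromosome 18, 12 held an E-box and 24 a GC box, against 17.2% and 32.7% of 32851 windows in all. Some genes have more than 1 window, so the windows are not independent. By gene, 10 of the 23 members held an E-box and 20 a GC box. No test compared these counts with all windows. A TCF/LEF core was found in 0 of the 32 windows and in 3.21% of all windows. At so low a share, 0 of 32 windows does not set the members apart. Dsc2, Dsg2 and Ctnna1 lie on chromosome 18 and were not searched. The GAS, CDX and TATA motifs were in 3, 1 and 5 of the 32, and in 7.02%, 4.52% and 12.4% of all. A match describes these letters and no match says nothing of binding elsewhere.

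Cldn2 forms cation pores and lies on the X chromosome (chrX:139800828-139811386). It was at 24.7, 39.6, 73.5, 38.9 and 29.4 FPKM in the controls and at 66.3, 71.3, 55.2, 115 and 58.4 FPKM in the Villin-WlscKO tumors. Control tumor 3 was above 4 of the 5 Villin-WlscKO tumors, and the other controls were below all of them. The group means, 41.2 ± 19.1 and 73.3 ± 24.4 FPKM, gave a difference of 0.87 (SE 0.28; limma adjusted p = 0.0818; exact permutation p = 0.0397). Without control tumor 3, the only control above any Villin-WlscKO tumor, the difference was 1.10 and passed the threshold. In 21 of 22 alternative settings Cldn2 still missed it, with a difference as small as 0.55. In order of level, Cldn2 held rank 4 among the claudins in all 5 Villin-WlscKO tumors and in 1 control. Its ratio to Cldn4 was 0.0467 to 0.134 in the controls and 0.168 to 0.287 in the Villin-WlscKO tumors, with no overlap. This ratio was picked after its values were seen and is a description. Sex and genotype cannot be told apart for this gene, as for every other gene here, X-linked or not.

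Cldn15, the other pore-forming claudin, was lower in level: 4.27, 8.25, 7.03, 2.89 and 8.31 FPKM in the controls and 9.54, 6.55, 9.65, 17.3 and 19.7 FPKM in the Villin-WlscKO tumors. All Villin-WlscKO tumors but tumor 2 exceeded every control. The mean was 2.04 times that of the controls, the difference was 0.90 (SE 0.33), and the limma adjusted p was 0.112 (exact permutation p = 0.0476). With the squamous score as a covariate the difference was 1.17 and passed. In 21 of 22 alternative settings Cldn15 missed the threshold, with a difference as small as 0.58. Cldn8, a barrier claudin of the distal colon, was at 7.69, 14.3, 18.2, 8.45 and 17.5 FPKM in the controls and at 20.6, 5.79, 26.2, 29.1 and 45.0 FPKM in the Villin-WlscKO tumors. Villin-WlscKO tumor 2 was the lowest of all 10 tumors while the other 4 were above every control. The difference of 0.73 (SE 0.46, limma adjusted p = 0.361) became 1.15 and passed without that tumor. In 21 of 22 alternative settings Cldn8 missed the threshold, with a difference as small as 0.41.

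Cldn23, a claudin of differentiated colonocytes, was at 48.4, 47.5, 46.3, 40.0 and 51.9 FPKM in the controls and at 42.2, 32.2, 36.4, 34.0 and 43.3 FPKM in the Villin-WlscKO tumors. Of the latter, 3 lay below every control. The difference was -0.31 (SE 0.10, limma adjusted p = 0.0736, exact permutation p = 0.0238), and it passed under quantile normalization, where it was -0.36. In 19 of 22 alternative settings Cldn23 missed the threshold, with a difference as small as -0.21. Cldn12 had 20.9 ± 2.93 and 20.5 ± 3.57 FPKM and a difference of -0.03 (95% interval -0.33 to 0.27).

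Cldn1, a claudin of stratified epithelia as well as gut, was near the floor of the table. Its values were 0.265, 0.167, 0.163, 0.322 and 0.325 FPKM in the controls and 0.0851, 2.58, 2.86, 0.384 and 0.450 FPKM in the Villin-WlscKO tumors. Only Villin-WlscKO tumors 2 and 3, those with Krt5, exceeded 0.5 FPKM, and the gene passed the filter on low values only through them. The difference was 0.66 (SE 0.35; limma adjusted p = 0.260). Cldn5, the claudin of vascular endothelium, was at 4.90 to 10.2 FPKM in the controls and 3.41 to 9.59 FPKM in the Villin-WlscKO tumors, with a difference of -0.24 (95% interval -0.78 to 0.30). The endothelial cadherin Cdh5 covered 2.61 to 9.84 and 2.57 to 10.4 FPKM in the same tumors.

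As shares of the claudin sum, Cldn7 went from 37.7% to 42.2% in the controls to 44.5% to 48.1% in the Villin-WlscKO tumors, and the 2 ranges did not overlap. Cldn4 made up 22.2% to 30.6% and 13.9% to 23.2%, with an overlap of 1 tumor on each side. Cldn3 had almost the same mean share in both groups, 26.1% ± 2.30 and 25.8% ± 3.28. Shares do not depend on how tumors are scaled, but they are tied to one another, and they were looked at without a test.

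**Figure D3:**
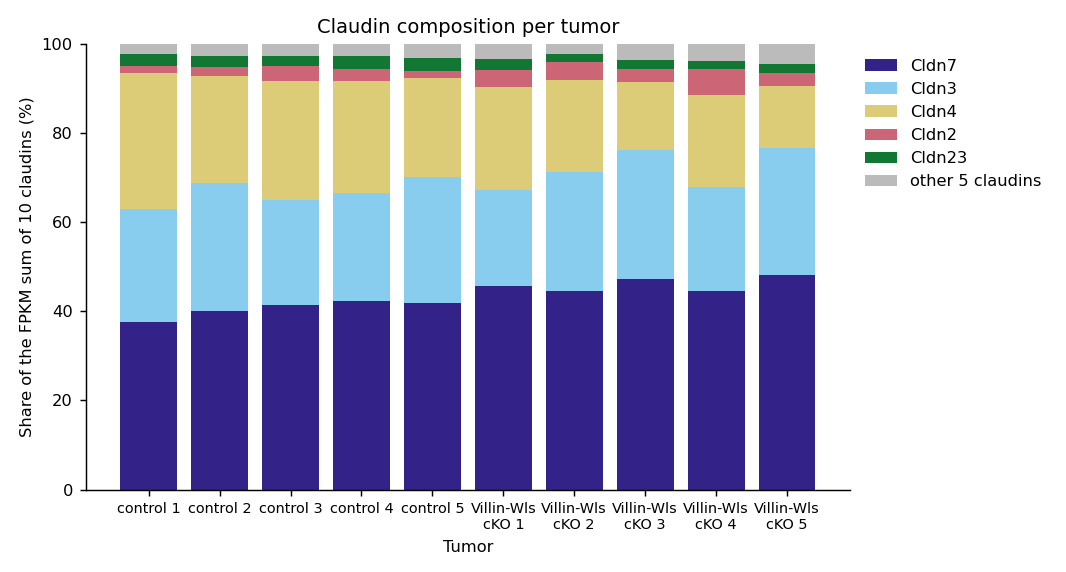
Share of each claudin in the summed FPKM of the 10 claudins (percent, stacked) for each of the 10 tumors. Cldn7 takes 37.7% to 42.2% in control tumors and 44.5% to 48.1% in Villin-WlscKO tumors, while the Cldn4 band is narrower in most Villin-WlscKO tumors.

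Of the 5 other membrane proteins of the tight junction, 0 passed the test and 2, Ocln and Marveld2, had an unadjusted p under 0.05. Ocln, which encodes occludin, was at 57.3, 67.5, 54.0, 41.2 and 53.1 FPKM in the controls and at 49.3, 32.6, 38.0, 42.2 and 44.3 FPKM in the Villin-WlscKO tumors. Control tumor 4 lay within the range of the Villin-WlscKO tumors and the other 4 controls lay above it. The difference was -0.39 (SE 0.14, limma adjusted p = 0.102, exact permutation p = 0.0317), and it was -0.49 and passed without control tumor 4. In 20 of 22 alternative settings Ocln missed the threshold, with a difference as small as -0.25. Marveld2, which encodes tricellulin of the corners where cells meet, was at 27.9, 29.6, 33.7, 31.0 and 33.8 FPKM in the controls and at 28.3, 21.2, 25.6, 26.6 and 26.1 FPKM in the Villin-WlscKO tumors. All Villin-WlscKO tumors but tumor 1 were below every control. The difference was -0.28 (SE 0.088), with a limma adjusted p of 0.0699 and an exact permutation p of 0.0159, the closest to the threshold of any member that missed it.

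The remaining membrane proteins had narrow ranges. Marveld3, a relative of occludin, was at 50.9 to 68.5 FPKM and 44.4 to 58.8 FPKM with a difference of -0.14 (95% interval -0.37 to 0.08). F11r, which encodes the adhesion molecule JAM-A, was at 146 to 164 FPKM and 143 to 164 FPKM with a difference of 0.04 (95% interval -0.095 to 0.17). Lsr, which recruits tricellulin to cell corners, was at 190 to 218 FPKM and 183 to 204 FPKM with a difference of -0.04 (95% interval -0.17 to 0.095). The intervals of F11r and Lsr were among the tightest of the 32 genes.

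The 3 scaffold genes had differences above 0 and none passed. Tjp1, which encodes ZO-1, was at 38.2 ± 3.47 FPKM in the controls and 39.2 ± 3.55 FPKM in the Villin-WlscKO tumors (difference 0.04, 95% interval -0.15 to 0.22). Tjp3, which encodes ZO-3, was higher than Tjp1 in every tumor, at 90.0 ± 16.2 and 110 ± 18.6 FPKM, and its difference was 0.29 (SE 0.14; limma adjusted p = 0.246). Tjp3 overlaps Apba3 on the opposite strand, and whether strand was used in the counting is not stated. Cgn, which encodes cingulin, was at 23.6 ± 2.80 and 26.5 ± 2.56 FPKM, a difference of 0.16 (95% interval -0.047 to 0.38).

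Among the polarity genes, which set the apical side of the cell, 0 of 4 passed. Pard3 was the exception in level, since it stayed near 1 FPKM: 0.336, 0.529, 0.509, 0.326 and 0.828 FPKM in the controls and 0.881, 1.05, 1.21, 0.644 and 1.31 FPKM in the Villin-WlscKO tumors. All Villin-WlscKO tumors but tumor 4 exceeded every control, the mean was 2.01 times as high, and the difference was 0.42 (SE 0.14; limma adjusted p = 0.0771; exact permutation p = 0.0159). Its partner Pard6b was at 13.0 to 16.2 and 14.4 to 17.5 FPKM, a difference of 0.04 (95% interval -0.15 to 0.22). Prkci, the atypical protein kinase C of the same complex, was at 24.4 to 32.3 and 24.2 to 30.6 FPKM, a difference of -0.08 (95% interval -0.28 to 0.12). Crb3, an apical membrane protein, was at 90.3 to 112 and 86.5 to 116 FPKM, a difference of -0.03 (95% interval -0.25 to 0.18). Crb3 overlaps Slc25a23 and Dennd1c on the opposite strand.

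Among the adherens junction genes and Epcam, 0 of 4 passed the threshold. Cdh1, which encodes E-cadherin, was at 98.2, 83.6, 66.8, 94.1 and 81.2 FPKM in the controls and at 144, 76.8, 82.9, 87.9 and 81.1 FPKM in the Villin-WlscKO tumors. Villin-WlscKO tumor 1 stood well above the other 9, which shared a range, and the difference was 0.13 (95% interval -0.25 to 0.51). Without that tumor it was -0.03. Ctnna1, which encodes alpha-catenin and overlaps Lrrtm2 on the opposite strand, was at 180 to 210 and 185 to 225 FPKM, a difference of 0.03 (95% interval -0.12 to 0.19). Ctnnd1, which encodes p120 catenin, was at 129 to 145 and 134 to 153 FPKM, a difference of 0.04 (95% interval -0.09 to 0.18). The table gives Tmx2 and Gm28635 the very same values as Ctnnd1, so that this level cannot be assigned to Ctnnd1 alone. Epcam, an epithelial adhesion protein that stabilizes claudins, was the highest of the 32 genes in group means at 986 ± 46.3 and 1120 ± 181 FPKM. Villin-WlscKO tumors 1, 4 and 5 were above every control and tumor 2 was below them all, and the difference was 0.17 (95% interval -0.081 to 0.42).

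Dsc2 was the member that passed the test. It lies at chr18:20030633-20059554 on the minus strand (GRCm38) and was at 65.3, 51.1, 50.6, 46.8 and 54.3 FPKM in control tumors 1 to 5 and at 75.7, 68.9, 84.6, 69.5 and 74.6 FPKM in Villin-WlscKO tumors 1 to 5. Every Villin-WlscKO tumor lay above every control. Means were 53.6 ± 7.04 and 74.7 ± 6.34 FPKM (SD, n = 5 each), the difference was 0.48 (SE 0.094, 95% interval 0.27 to 0.68), the limma adjusted p was 0.0102 and the exact permutation p was 0.00794, the smallest that 5 against 5 tumors allow. Villin-WlscKO tumors 2 and 3, with Krt5, were the lowest and the highest of their group, and Dsc2 still passed without both. When each tumor was centred on the 14 epithelial markers, whose mean log2 level was 8.38 in the controls and 8.70 in the Villin-WlscKO tumors, the Dsc2 difference was 0.16 and no longer passed (limma adjusted p = 0.375). That centring moved the median of all genes to -0.31.

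The partners of Dsc2 in the desmosome did not pass the test. Dsg2, the desmoglein of simple epithelia, was at 113, 109, 105, 77.9 and 99.8 FPKM in the controls and at 136, 96.8, 107, 102 and 120 FPKM in the Villin-WlscKO tumors, and the groups overlapped widely (difference 0.16, 95% interval -0.11 to 0.42). The Dsc2 to Dsg2 ratio was 0.535 ± 0.0577 and 0.672 ± 0.0906, with an overlap. Dsp, which encodes desmoplakin, was at 31.1 ± 5.14 and 32.4 ± 9.38 FPKM with a difference of 0.03 (95% interval -0.36 to 0.42). Jup, which encodes plakoglobin, was at 190 ± 26.8 and 191 ± 23.4 FPKM with a difference of 0.01 (95% interval -0.24 to 0.26). The plakophilin gene Pkp2 was at 28.7 ± 1.88 and 29.7 ± 2.74 FPKM (difference 0.04, 95% interval -0.13 to 0.22), and Pkp3 was at 118 ± 12.6 and 131 ± 16.5 FPKM (difference 0.15, 95% interval -0.078 to 0.38).

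Desmosome genes of stratified epithelium had another pattern, shared by the 2 tumors with Krt5. Villin-WlscKO tumors 2 and 3 had 15.5 and 17.3 FPKM of Dsg3, and the other 8 tumors had 1.10 to 5.74 FPKM. Dsc3 was at 4.96 and 5.44 FPKM in these tumors and at 0.105 to 1.64 FPKM elsewhere, and Pkp1 was at 51.3 and 58.7 FPKM against at most 35.5 FPKM elsewhere. None of the 3 passed the comparison of groups. Dsg3, Dsc3 and Pkp1 are themselves in the squamous marker list.

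**Figure D4:**
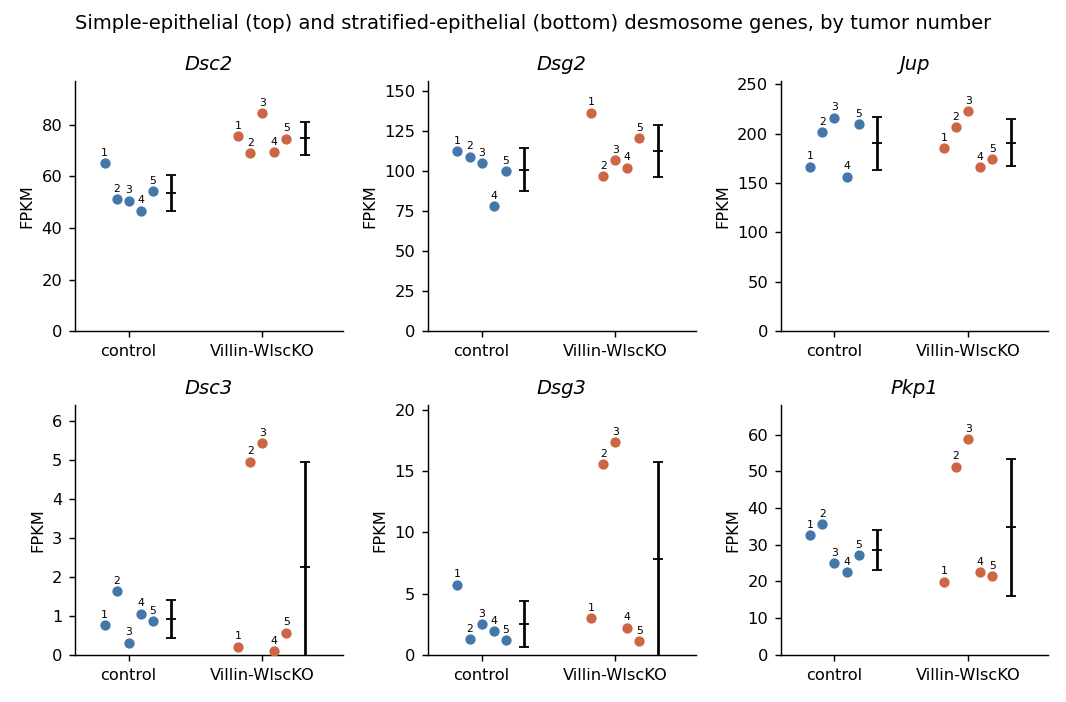
FPKM (vertical axes, from 0) of the desmosome members Dsc2, Dsg2 and Jup (top) and 3 desmosome genes of stratified epithelium (bottom) in 5 control and 5 Villin-WlscKO tumors. Points are tumors with their numbers, and bars are mean ± SD. Dsc2 is higher in all 5 Villin-WlscKO tumors. Dsc3, Dsg3 and Pkp1 are highest in Villin-WlscKO tumors 2 and 3, with Pkp1 at 20.0 to 35.5 FPKM in every other tumor.

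Across members, a few tumors held the highest or lowest value of their group for many genes. Control tumor 4 was the lowest control for 21 of the 32 genes and the highest for 0, and its epithelial marker sum, 7456 FPKM, was the lowest of the 10 tumors. Control tumor 3, with the highest sum among the controls (10913 FPKM), was the highest control for 12 genes. Villin-WlscKO tumors 1 and 5, with sums of 12061 and 13752 FPKM, were the highest of their group for 12 and 10 genes, and tumor 2, with 10289 FPKM, was the lowest of its group for 13. By sum, the match was not general. Villin-WlscKO tumor 4 had the lowest sum of its group (9334 FPKM) but was the lowest for 8 genes and the highest for 4. Villin-WlscKO tumor 3, with 12953 FPKM, was the highest for 5 and the lowest for 6. By the mean log2 level of the same markers, Villin-WlscKO tumors 2 and 4 were the lowest of their group and nearly equal, at 8.44 and 8.46. The part of the epithelial share of a tumor in the group differences was not tested.

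Of 59 other junction genes named in a list, 44 were in the table and tested: 2 were higher and 4 lower, against 6.12% and 4.75% of all genes, and 7 did not overlap between groups, against 10.1%. An unadjusted p under 0.05 was found for 11 genes (25.0%), against 25.7% of all genes. Cldn6, a claudin of embryonic epithelia, fell from 12.1, 6.97, 3.56, 19.3 and 8.42 FPKM in the controls to 1.08, 1.27, 1.03, 0.781 and 1.11 FPKM in the Villin-WlscKO tumors. The controls varied widely while the Villin-WlscKO tumors were all near 1 FPKM. Its difference was -2.26 (SE 0.33; limma adjusted p = 0.00195), larger in size than that of any of the 32 members.

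Ctnnb1, which encodes beta-catenin, fell from 696, 715, 734, 750 and 723 FPKM to 658, 587, 505, 584 and 586 FPKM. Villin-WlscKO tumor 1 was closest to the controls, which were tight. Its difference was -0.31 (SE 0.076; limma adjusted p = 0.0249), and this call was lost in 8 of 22 settings, in which the difference was -0.32 to -0.21 and the adjusted p at most 0.219: with equal FPKM sums, the replicate block, the squamous covariate, without Villin-WlscKO tumor 3 or tumors 2 and 3, and without control tumor 2, 4 or 5. Cdh1, Ctnna1 and Ctnnd1, whose proteins join beta-catenin in the adherens junction, had differences of 0.13, 0.03 and 0.04 that did not pass. Whether Ctnnb1 differed from them in its change was not tested. Ctnnb1 overlaps Ulk4 on the opposite strand and shares its values with a microRNA name inside its locus.

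Amot, an angiomotin of the polarity scaffold, fell from 24.0, 25.4, 24.7, 26.6 and 22.7 FPKM to 19.3, 13.4, 11, 17.2 and 15.8 FPKM, a difference of -0.68 (SE 0.13; limma adjusted p = 0.0091). It lies on the X chromosome (chrX:145446425-145505181), and sex and genotype cannot be told apart for it or for any other gene. Pkp4, a p120-related armadillo protein of adherens junctions and desmosomes, rose from 23.9, 21.1, 23.4, 23.0 and 20.8 FPKM to 29.0, 41.3, 34.0, 31.6 and 30.2 FPKM, a difference of 0.54 (SE 0.096; limma adjusted p = 0.00592). Both genes kept the groups apart in all tumors. Igsf5, the adhesion molecule JAM4, rose from 33.0 to 37.5 FPKM in the controls to 41.8 to 55.7 FPKM, a difference of 0.42 (SE 0.088; limma adjusted p = 0.0136), but the table gives Pcp4 the same values, so that this rise cannot be assigned to Igsf5 alone. The calls of Pkp4 and Igsf5 were lost when tumors were centred on the epithelial markers. Another gene without overlap, Pvrl1 (nectin-1), was at 0.635 to 0.848 FPKM in the controls and at 1.09 to 6.36 FPKM in the Villin-WlscKO tumors, highest in tumors 2 and 3, and did not pass (limma adjusted p = 0.123).

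**Figure D5:**
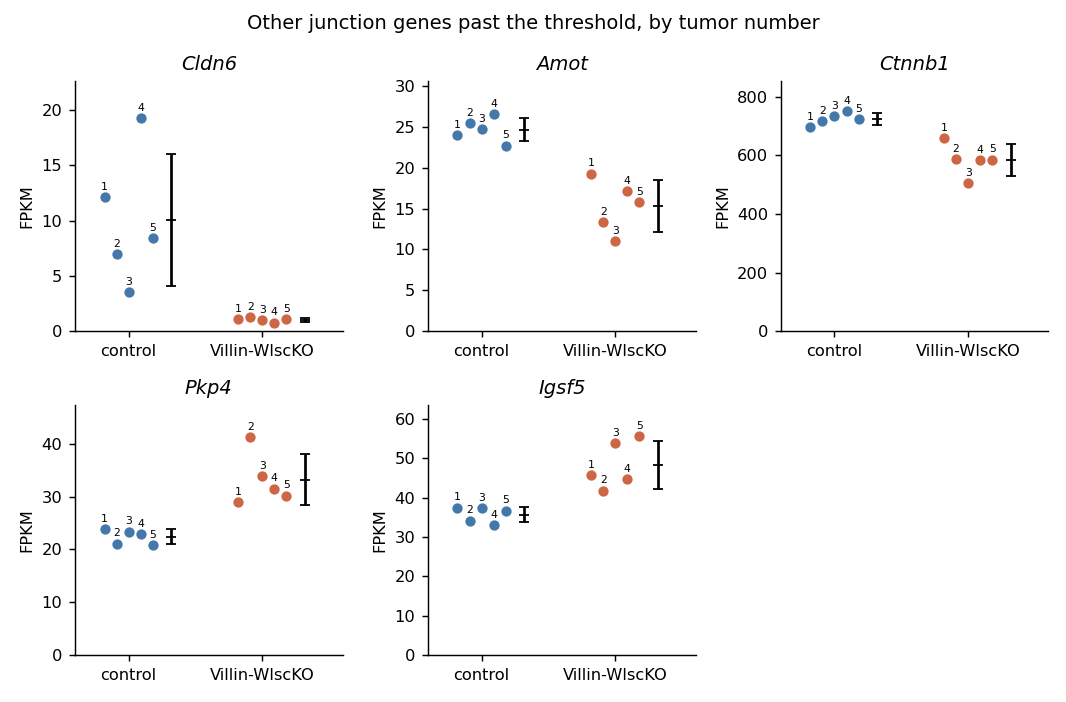
FPKM (vertical axes, from 0) of 5 other junction genes past the threshold in 5 control and 5 Villin-WlscKO tumors; points are tumors with their numbers, and bars are mean ± SD. Cldn6, Amot and Ctnnb1 are lower, and Pkp4 and Igsf5 higher, with no overlap between the groups.

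Of 19 factors that repress or sustain epithelial junction genes, among them Snail, Zeb, Grainyhead-like, Ovo-like and Cdx factors, 18 were in the table and 0 passed the limma test in either direction. Of all genes tested, 10.9% passed. An unadjusted p under 0.05 was found for 25.7% of all genes and for 4 of the 18 regulators (22.2%). They were chosen after their values were seen: Ovol1 at 4.66 ± 0.504 and 3.50 ± 0.436 FPKM (difference -0.33, adjusted p = 0.0661), Elf3 at 258 ± 45.8 and 309 ± 10.7 FPKM (0.27, adjusted p = 0.154), Cdx1 at 56.2 ± 20.7 and 83.4 ± 24.7 FPKM (0.59, adjusted p = 0.180) and Cdx2 at 8.40 ± 5.57 and 13.8 ± 4.51 FPKM (0.75, adjusted p = 0.181).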

How the data were processed

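Stranded libraries were made from the messenger RNA of 5 control and 5 Villin-WlscKO colon tumors, macrodissected and fresh frozen. Per the labels and methods, the authors checked reads with FastQC, mapped them with TopHat2 2.1.1 to GRCm38.p5 and ran Cufflinks 2.2.1 and Cuffdiff with default settings. For values per tumor, transcripts were not merged. The authors deposited these values as FPKM. The annotation release and the use of strand are not given in the sources used here. FPKM carry no read counts, so the depth is unknown. The FPKM sum per tumor was 1207683 to 1533885 and the median 11.3 to 12.2.

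Groups followed the sample titles, and 0 columns were left over. After addition of a pseudocount of 1, log2 values were compared with limma 3.58.1 (R 4.3.3) for names with a mean of at least 0.5 FPKM (16757 of 16875), using a variance trend and Benjamini-Hochberg adjustment over all genes tested. The method was tested on simulated data. Two-sided exact permutation tests used scipy 1.17.1. Genes were named by role for all 32 members. Of the other junction genes and regulators those past the threshold were named, at most 8 of each list (1 is not reported here), and of the marker lists the first 4 genes. The members and lists were chosen with earlier results of these data known. Gene positions are from GENCODE M21 and promoter windows from RefSeq (GRCm38.p6).

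Alternatives were a pseudocount of 0.1, no filter or a mean of at least 5 FPKM, scaling to an FPKM sum of 1000000, median ratios, quantile normalization, eBayes without trend or robust, a replicate block, each tumor left out, Villin-WlscKO tumors 2 and 3 left out, centring on 14 epithelial markers, and a score of 9 squamous markers as a covariate.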

Additional observations from a re-analysis of the deposited data

Results flagged for a closer look

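In 5 of 76 groups of 5 tumors (38 genes, each in both groups), 1 tumor lay far from the other 4 by Dixon's criterion for 5 values (0.71). Chance gives about 1 such group in 20. Cldn2 in Villin-WlscKO tumor 4 was at 115 FPKM against 55.2 to 71.3 FPKM in the other 4. Prkci in Villin-WlscKO tumor 2 was at 30.6 FPKM against 24.2 to 26.0 FPKM. In Villin-WlscKO tumor 1, Cdh1 was at 144 FPKM against 76.8 to 87.9 FPKM and Ctnna1 was at 225 FPKM against 185 to 195 FPKM. Pkp3 in control tumor 4 was at 95.8 FPKM against 120 to 128 FPKM.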

How the results depend on the processing

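Under 22 alternatives, 632 of 702 values for the 32 members kept their direction and side of the threshold, 56 changed sign, 13 crossed the threshold and 1, Dsc2 after centring on epithelial markers, lost its call. None of the values that changed sign passed the test. Cldn1 and Pard3 could not be tested at a mean of at least 5 FPKM. The counts that follow have no share of all genes in the same setting beside them. They are therefore not results about junction genes as a set. After centring, the median difference of all genes tested was itself -0.31. The members higher numbered 0 after centring and 2 with the squamous covariate, and 1 to 2 with a tumor left out, at 2 without control tumor 3 (Cldn2) or Villin-WlscKO tumor 2 (Cldn8). The members lower numbered 3 under quantile normalization (Cldn4 -0.58, Cldn23 -0.36, Marveld2 -0.33), 5 after centring (those 3 with Ocln and Marveld3), 1 under the replicate block (Cldn23), and 0 to 1 with a tumor left out, at 1 without control tumor 4 (Ocln). The sample titles do not say whether replicate numbers pair the tumors. Deviations of same-numbered tumors correlated at 0.064, -0.087, 0.063, 0.10 and 0.16, and 2 of 5 controls matched their own number best. These values cannot decide whether the numbers pair. The other junction genes higher numbered 4 after rescaling to equal FPKM sums, 0 after centring and 2 to 4 with a tumor left out, at 4 without Villin-WlscKO tumor 2. Those lower numbered 2 under the block and 2 to 4 with a tumor left out, at 2 without control tumor 2, 4 or 5. Regulators lower numbered 1 without the variance trend, 1 without Villin-WlscKO tumors 2 and 3 and 1 with the squamous covariate, and regulators higher 0 to 1 with a tumor left out, at 1 without control tumor 1.

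Small differences changed sign as follows. Centred on epithelial markers they were Cldn3 -0.27, Cldn7 -0.071, Tjp1 -0.28, Tjp3 -0.033, Cgn -0.15, F11r -0.28, Pard6b -0.28, Cdh1 -0.19, Ctnna1 -0.28, Ctnnd1 -0.27, Epcam -0.15, Dsg2 -0.16, Dsp -0.29, Jup -0.31, Pkp2 -0.28 and Pkp3 -0.17. Under quantile normalization they were Cldn3 -0.15, Cldn7 -0.0040, F11r -0.088, Ctnna1 -0.086, Ctnnd1 -0.074, Epcam -0.081, Dsp -0.011 and Jup -0.11. With equal FPKM sums they were Cldn12 0.070, Prkci 0.022, Crb3 0.070 and Lsr 0.066. Without Villin-WlscKO tumors 2 and 3 they were Cldn12 0.14, Crb3 0.021, Lsr 0.0088 and Jup -0.11, and with the squamous covariate Cldn12 0.11, Crb3 0.017 and Jup -0.082. With a tumor left out the ranges were -0.046 to 0.14 for Cldn3, -0.12 to 0.042 for Cldn12, -0.013 to 0.071 for Tjp1, -0.015 to 0.063 for Pard6b, -0.094 to 0.010 for Crb3, -0.034 to 0.19 for Cdh1, -0.012 to 0.066 for Ctnna1, -0.12 to 0.12 for Dsp and -0.056 to 0.060 for Jup. Centring moved the median of all genes to -0.31. The causes were not tested.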
